A study of Mus musculus with 12 samples.

Results

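Thrombospondin-1 (Thbs1) and 7 of its binding partners, Cd47, Cd36, Sdc1, Sdc3, Sdc4, Lrp1 and Calr, were described in mouse neutrophils and macrophages exposed to CGRP, a peptide released by sensory neurons. The 8 genes were taken by symbol from the 52636 genes counted in both cell types, and each was found once. CGRP-treated macrophages, which had 32.5-fold more Thbs1 mRNA than saline-treated macrophages, had more Sdc1 mRNA and less Sdc4 mRNA, and the other 5 partners did not pass the test. In CGRP-treated neutrophils, which had 5.26-fold more Thbs1 mRNA, none of the 6 partners that could be tested passed. Of all genes tested, 7.43% passed in macrophages and 2.53% in neutrophils.

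Thrombospondin-1 is a large glycoprotein of platelets, leukocytes and the extracellular matrix, and it works mainly by binding other molecules. CD47 binds its carboxy-terminal end, CD36 its type 1 repeats, and the heparan sulfate chains of syndecans its amino-terminal end. Calreticulin and LRP1 form a complex at the cell surface through which thrombospondin-1 loosens focal adhesions, and LRP1 also takes thrombospondin-1 into the cell for degradation.

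Neutrophils were enriched from the bone marrow of C57BL/6J mice aged 8 to 12 weeks and were exposed in RPMI medium to 1 nM CGRP or to PBS, the saline control, for 4 hours. Bone marrow monocytes from such mice were first kept for 3 days in DMEM/F12 that held M-CSF at 10 ng/ml to drive them toward macrophages, and were then exposed to the same 2 solutions for the same time. No genotype separated the groups, and within a cell type no agent other than CGRP did. M-CSF and the medium differed between the cell types. Each of the 4 groups held 3 libraries. No source used here says that the libraries of a group came from separate mice, so that p-values measure only the spread between these libraries. The 12 libraries held between 2002559 and 3631989 counts of tagged mRNA molecules, and 3 counts, taken as the detection floor, corresponded to between 0.826 and 1.498 counts per 1000000 (CPM).

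The labelled cell types were checked against their markers. The sample titles call the cells kept in M-CSF monocyte/macrophage, written here as macrophages. A list of 10 neutrophil genes, led by the calcium-binding protein gene S100a8, summed to between 156068 and 234569 CPM in the neutrophil libraries and to between 301 and 443 CPM in the macrophage libraries. A list of 10 macrophage genes summed to between 11041 and 13553 CPM in macrophages, where the complement gene C1qb led, and to between 640 and 768 CPM in neutrophils, where the lysosomal gene Cd68 led. The neutrophil preparation also held mRNA of other marrow cells, since erythroid genes summed to between 5750 and 7377 CPM there and 7 B and plasma cell genes to between 834 and 969 CPM, led by Hbb-bs and Ighm. Platelets carry much thrombospondin-1, and the 8 platelet and megakaryocyte genes summed to between 128 and 195 CPM in neutrophils and to between 631 and 978 CPM in macrophages, with Pf4 the most abundant in every library and the platelet receptor gene Gp1ba at 0 in every library. The sum in macrophages was nearly all Pf4, and after PBS the mean levels of Ppbp and Itga2b were lower there (2.78 and 0.651 CPM) than in neutrophils (13.4 and 6.63 CPM), with Gp1bb and Gp9 at 0 in all 3 macrophage libraries.

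Within a cell type, none of the markers passed the test for CGRP in limma-voom, in edgeR or in DESeq2, among 43 tested in neutrophils and 29 in macrophages. At an unadjusted p under 0.05 there were 5 in neutrophils and 6 in macrophages, against 1257 of 9819 and 1860 of 9393 among all genes tested. The summed markers nevertheless separated the treatments in places. Among single genes tested, the groups did not overlap for 24.1% in macrophages and 17.8% in neutrophils. In macrophages the macrophage list ran from 11041 to 11619 CPM after PBS and from 11716 to 13553 CPM after CGRP, the neutrophil list from 301 to 394 CPM and from 415 to 443 CPM, and the B and plasma cell list from 122 to 147 CPM and from 108 to 118 CPM. In neutrophils the T and NK cell list ran from 115 to 131 CPM after PBS and from 83.9 to 109.9 CPM after CGRP. The other sums overlapped. Nkg7 led the T and NK cell list in every neutrophil library, and Ighm led the B and plasma cell list in every macrophage library. Pecam1, an adhesion molecule gene, came from the marker list of fibroblasts and endothelial cells. It was the only marker called in the limma-voom interaction (macrophages minus neutrophils 3.06 on the log2 scale, SE 0.79, adjusted p = 0.0394). It had 0, 2 and 6 counts after PBS in macrophages and 12, 6 and 13 after CGRP, too few for a test there, and 28, 25 and 27 after PBS in neutrophils and 18, 28 and 13 after CGRP. Because the macrophage counts were too low for a test, no difference between the cell types is read from this call. The part of these shifts in the results was not tested. In such bulk libraries, fewer cells of a type and less RNA per cell cannot be told apart.

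Thbs1 itself (chromosome 2, 118111876 to 118127133, plus strand, GRCm38) was counted 356, 340 and 327 times in the saline-treated neutrophils and 2089, 2125 and 1038 times in the CGRP-treated neutrophils. Macrophage libraries gave 148, 128 and 197 counts after PBS and 4277, 4772 and 3232 after CGRP. Within each cell type every CGRP-treated library lay above every saline-treated one. Thbs1 rose from 110 ± 7.35 to 582 ± 111 CPM in neutrophils (SD, n = 3, log2 fold change 2.39, limma-voom adjusted p = 6.07e-11) and from 51.3 ± 18.1 to 1601 ± 211 CPM in macrophages (SD, n = 3, log2 fold change 5.02, limma-voom adjusted p = 1.43e-10). The 2 rises differed by 2.64 on the log2 scale, macrophages being higher (SE 0.24, limma-voom interaction over the 12 libraries, adjusted p = 4.84e-07), and among all genes called higher Thbs1 ranked 5 of 148 in neutrophils and 1 of 325 in macrophages by log2 fold change.

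**Figure D1:**
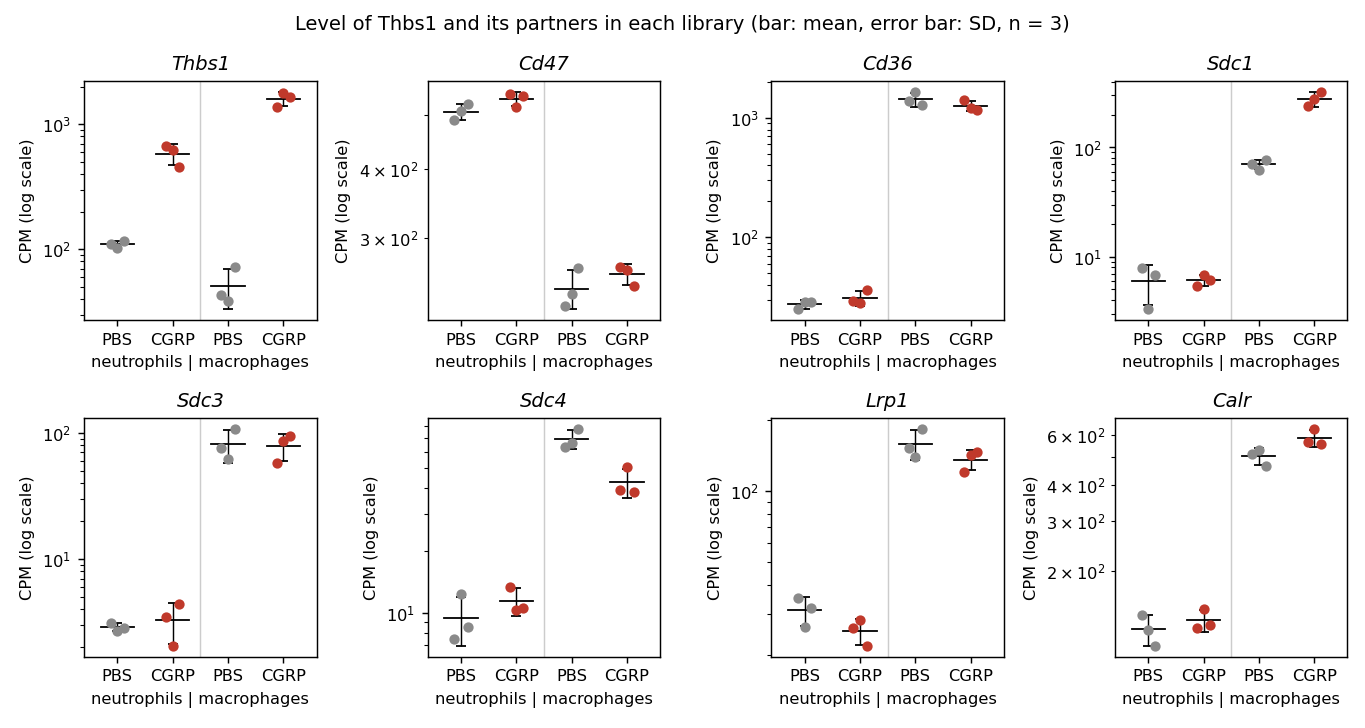
Levels of Thbs1 and its 7 partners in CPM (log axis, each panel with its own range) in the 3 libraries of each group, scaled within each cell type. Points are libraries, the horizontal line is the mean and the error bar the SD. Thbs1 is higher with CGRP in both cell types, Sdc1 is higher and Sdc4 lower with CGRP in macrophages, and the syndecans, Cd36, Lrp1 and Calr are higher in macrophages than in neutrophils.

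Whether the partners moved with their ligand was asked in each cell type by limma-voom over all genes that passed a filter on low counts, with Benjamini-Hochberg adjustment. In neutrophils 248 of 9819 genes passed the adjusted threshold of 0.05 (2.53%, with 1.51% higher and 1.02% lower with CGRP), and 0 of the 6 partners tested did. The smallest unadjusted p of a partner was 0.131, for Lrp1, and edgeR and DESeq2 also called 0. Sdc3 was below the filter in neutrophils. In macrophages 698 of 9393 genes passed (7.43%, with 3.46% higher and 3.97% lower), and 2 of the 7 partners did, Sdc1 higher and Sdc4 lower.

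The intervals separate the partners from Thbs1. In neutrophils the 95% confidence interval of the log2 fold change of Thbs1 ran from 2.14 to 2.65, and the highest upper bound of a partner was 0.86, for Sdc1. In macrophages the interval of Thbs1 ran from 4.62 to 5.43, that of Sdc1 from 1.67 to 2.31, and the highest upper bound among the other partners was 0.47, for Calr. The groups did not overlap for 17.8% of the genes tested in neutrophils and for 24.1% in macrophages, and among the partners this was so for Sdc1, Sdc4 and Calr in macrophages.

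**Figure D2:**
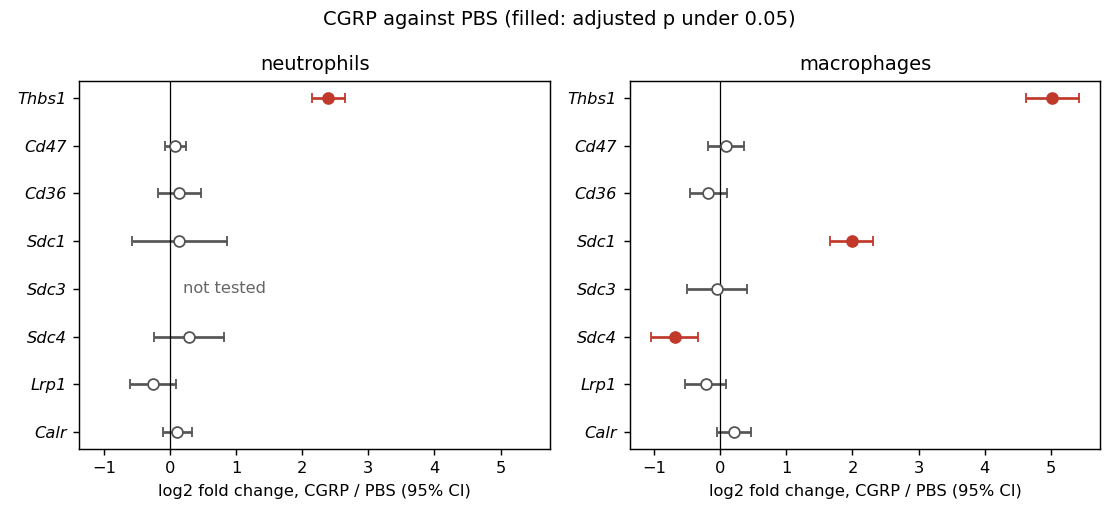
Log2 fold change of CGRP against PBS for Thbs1 and its partners in neutrophils (left) and macrophages (right), with 95% confidence intervals from limma-voom. Filled points have an adjusted p under 0.05, which in neutrophils is Thbs1 and in macrophages Thbs1, Sdc1 and Sdc4. Sdc3 was not tested in neutrophils.

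Sdc1, syndecan-1, carries heparan and chondroitin sulfate chains on a transmembrane core protein and is shed from the cell surface by proteases. The gene lies on chromosome 12 from 8771323 to 8793715 on the plus strand. Its counts in macrophages were 244, 207 and 209 after PBS and 742, 740 and 636 after CGRP. The groups were far apart, with the lowest CGRP-treated library at 238 CPM and the highest saline-treated library at 76.4 CPM. Sdc1 rose 3.97-fold, from 70.0 ± 6.88 to 280 ± 42.6 CPM (SD, n = 3), with a log2 fold change of 1.99 (SE 0.15, limma-voom adjusted p = 5.61e-07), and it ranked 43 of the 325 genes called higher.

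In neutrophils Sdc1 was scarce, with 25, 11 and 19 counts after PBS and 17, 23 and 14 after CGRP. These groups overlapped, and the log2 fold change of 0.14 had a 95% interval from -0.57 to 0.86. The CGRP effect on Sdc1 in macrophages exceeded that in neutrophils by 1.85 on the log2 scale (SE 0.40, limma-voom interaction, adjusted p = 0.0096), in a comparison in which 2.36% of 10694 genes were called. This call was lost without saline-treated neutrophil replicate 1 (1.60, limma-voom adjusted p = 0.0835) or replicate 3 (1.70, limma-voom adjusted p = 0.0571).

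Sdc4, syndecan-4, is found in focal adhesions and binds protein kinase C alpha through its short cytoplasmic tail. It lies on chromosome 2 from 164424247 to 164443887 on the minus strand. In macrophages its counts were 218, 220 and 213 after PBS and 122, 135 and 76 after CGRP. Every CGRP-treated library lay below every saline-treated one, the highest of the former at 50.6 CPM and the lowest of the latter at 63.5 CPM. Sdc4 fell 1.61-fold, from 69.3 ± 7.55 to 42.8 ± 6.78 CPM (SD, n = 3), with a log2 fold change of -0.69 (SE 0.17, limma-voom adjusted p = 0.0181), and it ranked 297 of the 373 genes called lower.

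The call for Sdc4 depended on CGRP-treated macrophage replicate 3, without which the log2 fold change was -0.63 (limma-voom adjusted p = 0.0797), and without replicate 1 of that group it was only just under the threshold (adjusted p = 0.0499992). In neutrophils Sdc4 had 24, 41 and 24 counts after PBS and 42, 35 and 24 after CGRP, overlapping groups with a log2 fold change of 0.29 (95% interval -0.25 to 0.82). The difference between the cell types in its CGRP effect was -0.96 (SE 0.31) and did not pass the adjusted threshold in the interaction test by limma-voom (unadjusted p = 0.00499, adjusted p = 0.118).

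Sdc3, syndecan-3, first known from the nervous system, gave 261, 204 and 296 counts in saline-treated macrophages and 179, 231 and 185 in CGRP-treated ones. The groups overlapped, at 82.0 ± 23.8 and 79.3 ± 19.3 CPM (SD, n = 3), and the log2 fold change was -0.05 (95% interval -0.50 to 0.40). In neutrophils Sdc3 had between 7 and 11 counts in every library. Sdc2, the remaining syndecan, had between 1 and 8 counts in any library and was tested in neither cell type.

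Because each count stands for 1 tagged molecule, the syndecan counts of a library can be added. In macrophages the summed level of the 4 syndecans was 212, 194 and 263 CPM with saline and 337, 415 and 458 CPM with CGRP, groups that did not overlap. Sdc1 made up 33.5%, 32.4% and 29.1% of the syndecan counts after PBS and 70.7%, 66.8% and 70.5% after CGRP. The share of Sdc4 was 31.3% ± 2.70 with saline and 10.7% ± 2.03 with CGRP, and that of Sdc3 was 36.3% ± 4.64 and 19.5% ± 2.09 (SD, n = 3). The saline-treated macrophages thus held the 3 transcripts in similar shares, and the CGRP-treated macrophages held mainly Sdc1. In neutrophils the summed level was 20.4 ± 0.210 and 23.1 ± 1.92 CPM after PBS and CGRP (SD, n = 3), groups that did not overlap either, since the highest PBS library was at 20.66 and the lowest CGRP library at 20.84 CPM. The share of Sdc1 there was 29.1% ± 11.6 and 26.7% ± 5.13, a difference within the spread.

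**Figure D3:**
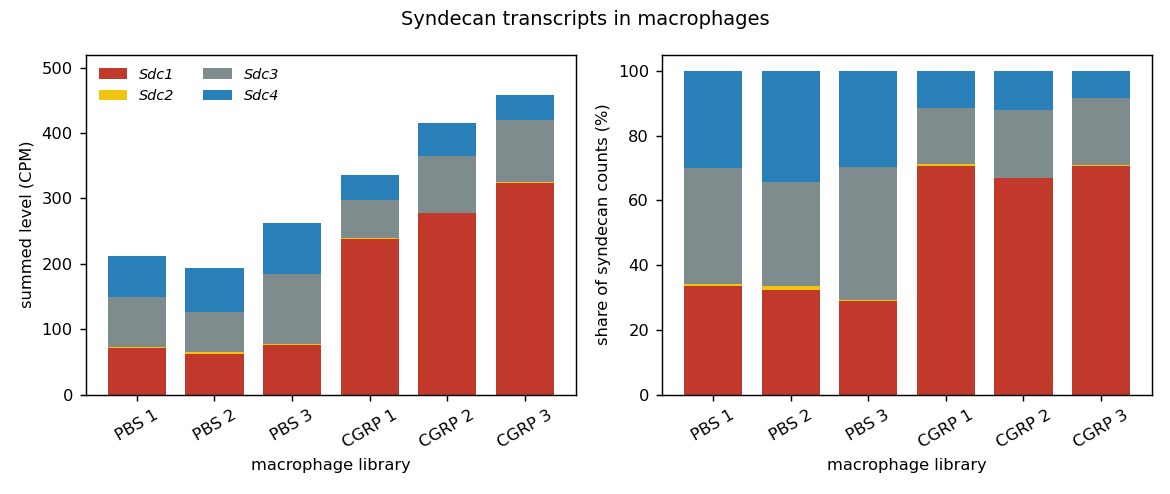
Syndecan transcripts in the 6 macrophage libraries. Left, the summed level in CPM, divided among Sdc1, Sdc2, Sdc3 and Sdc4. Right, the share of each in the syndecan counts of that library in percent. With CGRP, Sdc1 takes between 66.8% and 70.7% of the counts, against between 29.1% and 33.5% with saline.

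The promoters of Sdc1 and Sdc4 are shown because these 2 partners changed with CGRP and in opposite directions. The CGRP receptor raises cAMP, and CREB, a transcription factor activated by cAMP, is known to bind the element TGACGTCA and its shorter form TGACG. RefSeq promoters (GRCm38.p6, 250 bases before to 50 after the start site) were found for 7 of the 8 genes. None was found for Thbs1, so that its promoter was not searched. On either strand the full element was in 1.79% of all 32851 such promoters. The shorter form, which the full element contains, was in 20.8%. Neither element was in the Sdc1 or Sdc4 promoter. The capitals mark the GC box GGGCGG, a binding motif of Sp1, on either strand. It was found 3 times in Sdc1 and 4 times in Sdc4, and 35.7% of all promoters held it at least once. All 7 promoters held it, those of Cd47 and Sdc3 3 times, Cd36 and Calr 2 times and Lrp1 once, so that it does not set the 2 called partners apart.
Sdc1, chr12:8771146-8771445, plus strand: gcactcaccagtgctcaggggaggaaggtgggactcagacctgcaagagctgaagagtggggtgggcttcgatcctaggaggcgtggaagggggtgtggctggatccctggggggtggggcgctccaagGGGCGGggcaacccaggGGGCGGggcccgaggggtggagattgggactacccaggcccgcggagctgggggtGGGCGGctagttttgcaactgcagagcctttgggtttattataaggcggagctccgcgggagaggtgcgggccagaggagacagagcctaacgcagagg
Sdc4, chr2:164443139-164443438, minus strand: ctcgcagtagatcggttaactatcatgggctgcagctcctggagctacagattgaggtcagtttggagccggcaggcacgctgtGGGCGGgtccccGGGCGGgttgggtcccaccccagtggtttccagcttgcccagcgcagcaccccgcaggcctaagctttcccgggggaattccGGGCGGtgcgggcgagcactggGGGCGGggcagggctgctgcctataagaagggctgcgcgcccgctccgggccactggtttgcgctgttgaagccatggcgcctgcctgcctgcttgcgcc

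CD47 is the integrin-associated protein, which binds thrombospondin-1 and, on another cell, SIRP alpha, an inhibitory receptor of phagocytes. Cd47 (chromosome 16, 49800533 to 49915010, plus strand) had 1571, 1699 and 1466 counts in saline-treated neutrophils and 1715, 1761 and 1232 in CGRP-treated ones. Macrophage libraries gave 778, 786 and 725 counts after PBS and 829, 701 and 484 after CGRP. Scaled for depth, the groups overlapped in both cell types. The level was 507 ± 16.5 and 535 ± 15.6 CPM in neutrophils and 243 ± 19.7 and 258 ± 10.8 CPM in macrophages (SD, n = 3). The log2 fold change was 0.08 in neutrophils (95% interval -0.08 to 0.24) and 0.09 in macrophages (95% interval -0.18 to 0.36), so that a change of Cd47 beyond 1.28-fold lay outside both intervals.

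The Cd47 promoter is shown as the only one of the 7 with more than 1 copy of the short form. The capitals mark 2 adjoining copies of TGACG, both read on the minus strand. RefSeq lists 2 start sites for Cd47 that lie 7 bases apart, and the promoter of the first is given. The short form was also in the Sdc3 promoter, once, and the full element was in none of the 7.
Cd47, chr16:49855404-49855703, plus strand: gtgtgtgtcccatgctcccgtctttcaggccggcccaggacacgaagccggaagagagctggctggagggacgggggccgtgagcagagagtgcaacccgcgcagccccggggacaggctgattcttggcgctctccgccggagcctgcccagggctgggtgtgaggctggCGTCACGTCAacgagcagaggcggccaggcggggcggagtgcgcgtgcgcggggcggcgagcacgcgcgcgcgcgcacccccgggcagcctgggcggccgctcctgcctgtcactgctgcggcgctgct

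Sirpa, which encodes SIRP alpha, the counter-receptor of CD47 on phagocytes, fell in macrophages. Its counts were 2562, 2092 and 2456 after PBS and 1186, 1090 and 933 after CGRP, with no overlap. The level went from 759 ± 132 to 421 ± 48.0 CPM (SD, n = 3), which is -0.84 on the log2 scale (SE 0.15, limma-voom adjusted p = 0.00149). In neutrophils Sirpa had 629, 629 and 567 counts after PBS and 517, 571 and 386 after CGRP, a log2 fold change of -0.22 that did not pass (limma-voom adjusted p = 0.222), and the difference between the cell types did not pass either (-0.61, limma-voom interaction, adjusted p = 0.0616). Of the 8 genes listed as CD47 partners, 7 were tested in each cell type, and 1 fell in macrophages, where 3.97% of all genes tested did. None passed in neutrophils by limma-voom, edgeR or DESeq2, with Sirpa at an unadjusted p under 0.05, as were 1257 of all 9819 genes tested there. The list median was -0.07 in macrophages, against 0.0047 over all genes tested.

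CD36 is a scavenger receptor that takes up oxidized lipoproteins and long-chain fatty acids and mediates effects of thrombospondin-1 on endothelial cells. Cd36 (chromosome 5, 17781690 to 17888801, minus strand) had 4721, 5458 and 3524 counts in saline-treated macrophages and 4385, 3249 and 2316 in CGRP-treated ones. The groups overlapped at 1439 ± 191 and 1267 ± 123 CPM (SD, n = 3), with a log2 fold change of -0.18 (95% interval -0.46 to 0.10). In neutrophils Cd36 had between 80 and 96 counts in each library, 27.5 ± 2.25 and 30.95 ± 4.39 CPM after PBS and CGRP (SD, n = 3), with a log2 fold change of 0.14 (95% interval -0.19 to 0.47).

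Among the genes listed with CD36, 3 of 8 tested fell in macrophages, where 3.97% of all genes tested were called lower. Pparg, the nuclear receptor that induces Cd36 and Fabp4 in macrophages, had 245, 211 and 231 counts after PBS and 59, 61 and 45 after CGRP. It fell 3.38-fold, with a log2 fold change of -1.76 (SE 0.19, limma-voom adjusted p = 1.72e-05). Fabp4, a fatty acid carrier of the cytosol, had 2244, 2816 and 1854 counts after PBS and 1115, 928 and 504 after CGRP. It fell 2.27-fold, with a log2 fold change of -1.19 (SE 0.15, limma-voom adjusted p = 9.35e-05). Neither gene's groups overlapped, whereas those of Cd36 did. Plin2, the coat protein of lipid droplets, fell by 0.53 on the log2 scale (SE 0.12, limma-voom adjusted p = 0.0115), and this call was lost without saline-treated macrophage replicate 1 (adjusted p = 0.102) or CGRP-treated macrophage replicate 2 (adjusted p = 0.0831).

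Of the 9 genes listed with CD36, 8 were tested in macrophages, where limma-voom called these 3 lower and none higher, and the median log2 fold change was -0.09, against 0.0047 over all genes tested. Lyn, a Src family kinase that signals from CD36, was at 0.46 and passed in edgeR (adjusted p = 0.0479) but not in limma-voom (adjusted p = 0.0509) or DESeq2 (adjusted p = 0.0523). The log2 fold changes of Fyn and Fabp5 were 0.71 and 0.22 and did not pass in any of the 3. In neutrophils 7 were tested, and 3 had an unadjusted p under 0.05, against 1257 of all 9819 genes tested there. Of these 3, Fyn (log2 fold change 0.80, limma-voom adjusted p = 0.101) and Cd81 (0.29, limma-voom adjusted p = 0.140) did not pass. The 1 that rose was Cd9, a tetraspanin that associates with CD36, where 1.51% of all genes tested were called higher. Cd9 had 1785, 1899 and 1480 counts after PBS and 2335, 2202 and 1630 after CGRP, groups that did not overlap once scaled for depth. The log2 fold change was 0.35 (SE 0.08, limma-voom adjusted p = 0.0196), and leaving out any 1 of the 6 libraries but CGRP-treated neutrophil replicate 2 ended the call, with adjusted p between 0.0601 and 0.109, as did a single fit over 12 libraries (adjusted p = 0.241). In macrophages the log2 fold change of Cd9 was -0.29 and did not pass (limma-voom adjusted p = 0.255).

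LRP1 is an endocytic receptor of the LDL receptor family with many ligands besides thrombospondin-1. Lrp1 (chromosome 10, 127538161 to 127621148, minus strand) had 523, 462 and 504 counts in saline-treated macrophages and 376, 378 and 287 in CGRP-treated ones, which overlapped at 159 ± 22.8 and 136 ± 13.5 CPM (SD, n = 3). In neutrophils it had 113, 88 and 89 counts after PBS and 82, 96 and 50 after CGRP, which also overlapped. The log2 fold change was -0.22 in macrophages (SE 0.15, limma-voom adjusted p = 0.444) and -0.26 in neutrophils (SE 0.17, limma-voom adjusted p = 0.564). Lrpap1, the chaperone that keeps ligands off LRP1 on its way to the surface, had 686, 598 and 527 counts in saline-treated macrophages and 846, 673 and 512 in CGRP-treated ones, and it rose by 0.45 on the log2 scale (SE 0.12, limma-voom adjusted p = 0.0354). This call was lost when any 1 of the 6 libraries but saline-treated replicate 3 was left out (adjusted p between 0.0732 and 0.125), with library totals in place of TMM scaling (adjusted p = 0.0674) and with no filter on low counts (adjusted p = 0.0596). The other genes of the list of LRP1 chaperones and adaptors, 6 of 7 being tested in each cell type, did not pass in either.

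Calreticulin is a calcium-binding chaperone of the endoplasmic reticulum, a part of which reaches the cell surface. Calr (chromosome 8, 84841850 to 84846934, minus strand) had 1767, 1757 and 1280 counts in saline-treated macrophages and 1758, 1681 and 1099 in CGRP-treated ones. Scaled for depth, the CGRP-treated libraries lay at 564, 630 and 558 CPM and the saline-treated ones at 514, 532 and 468 CPM, so that the groups did not overlap, but the log2 fold change of 0.21 (95% interval -0.05 to 0.47) did not pass (limma-voom adjusted p = 0.380). In neutrophils the counts were 453, 416 and 309 after PBS and 398, 505 and 295 after CGRP, with overlap and a log2 fold change of 0.11 (SE 0.11, limma-voom adjusted p = 0.741). All 9 other genes of the calreticulin cycle and of endoplasmic reticulum chaperones, among them Canx, Pdia3 and Hspa5, were tested in both cell types, and none passed by limma-voom, edgeR or DESeq2. At an unadjusted p under 0.05 there was 1 in neutrophils, Dnajb11, and none in macrophages, against 1257 of 9819 and 1860 of 9393 among all genes tested.

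Integrins form another group of receptors for thrombospondin-1, alpha v beta 3 (Itgav and Itgb3) binding its RGD sequence. Itgav had 130, 113 and 153 counts in saline-treated macrophages and 42, 69 and 41 in CGRP-treated ones, and it fell by 1.11 on the log2 scale (SE 0.26, limma-voom adjusted p = 0.0132). Itgb3 had 107, 111 and 72 counts in saline-treated neutrophils and 34, 27 and 11 in CGRP-treated ones, and it fell by 1.96 on the log2 scale (SE 0.26, limma-voom adjusted p = 7.51e-05). The 2 subunits of this receptor thus fell in different cell types, and neither difference between the cell types passed the interaction test (limma-voom adjusted p = 0.296 for Itgav and 0.324 for Itgb3). In macrophages Itgb3 had at most 6 counts in a library and was not tested, and in neutrophils the log2 fold change of Itgav was -0.06 (95% interval -0.72 to 0.59). Platelets also carry Itgb3. Of the 8 platelet and megakaryocyte genes, 4 were tested in neutrophils and none passed by limma-voom, edgeR or DESeq2, nor at an unadjusted p under 0.05. Their mean levels after PBS and after CGRP were 142 and 144 CPM for Pf4, 13.4 and 15.1 for Ppbp, 6.63 and 5.13 for Itga2b, 3.71 and 3.90 for Gp1bb and 2.27 and 3.06 for Gp9, so that of these 5 Itga2b had the lower mean after CGRP, with 21, 22 and 18 counts after PBS and 28, 14 and 5 after CGRP. The other 3 genes of the list, Gp6, Treml1 and Gp1ba, had at most 4 counts in any neutrophil library.

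Itga9, the alpha 9 subunit, had 7, 14 and 26 counts in saline-treated macrophages and 32, 41 and 23 in CGRP-treated ones, and scaled for depth the groups did not overlap. Its log2 fold change of 1.52 (SE 0.41, limma-voom adjusted p = 0.0337) did not pass in edgeR (adjusted p = 0.0716) or DESeq2 (adjusted p = 0.0678) or with library totals (adjusted p = 0.0525). It also did not pass without saline-treated replicates 1 or 2 or CGRP-treated replicates 2 or 3, and without saline-treated macrophage replicate 1 it was 0.98 (limma-voom adjusted p = 0.245). Of the 14 other cell surface binders listed, 7 were tested in macrophages, where 1 rose and 1 fell, and 8 in neutrophils, where 1 fell. Of all genes tested, 7.43% were called in macrophages and 2.53% in neutrophils.

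The genes for adaptors and shedding proteases of syndecans, 9 in the list, gave no call in either cell type by limma-voom, edgeR or DESeq2, among 8 tested in neutrophils and 6 in macrophages. At an unadjusted p under 0.05 there was 1, Mmp14 in macrophages, against 1257 of 9819 in neutrophils and 1860 of 9393 in macrophages among all genes tested. Sdcbp, which encodes syntenin, the adaptor of syndecan tails, was at 902 ± 34.7 and 769 ± 75.04 CPM in macrophages with saline and CGRP (SD, n = 3). Adam10, a protease that sheds syndecans, was at 90.5 ± 14.4 and 107 ± 23.2 CPM (SD, n = 3).

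Further ligands that thrombospondin-1 binds or activates changed in macrophages. Vegfa, the endothelial growth factor that thrombospondin-1 binds and antagonizes, had 28, 16 and 32 counts after PBS and 150, 106 and 88 after CGRP. It rose 5.72-fold, with a log2 fold change of 2.52 (SE 0.27, limma-voom adjusted p = 1.70e-05). Plau, urokinase, had 61, 56 and 76 counts after PBS and 4, 2 and 8 after CGRP, and it fell by 3.57 on the log2 scale (SE 0.52, limma-voom adjusted p = 3.11e-04). Both differed between the cell types in the limma-voom interaction, which gave 2.24 (adjusted p = 0.00532) and -3.39 (adjusted p = 0.00304). In neutrophils their log2 fold changes were 0.29 and -0.17, from low counts. Vegfa had 14, 18 and 23 counts there after PBS and 15, 27 and 22 after CGRP. Plau had 18, 12 and 12 after PBS and 15, 13 and 7 after CGRP. Of the 13 soluble and matrix binders listed, these were the only 2 of 6 tested in macrophages that passed, where 7.43% of all genes did. None of 10 passed in neutrophils by limma-voom, edgeR or DESeq2. An unadjusted p under 0.05 was found for 4 in neutrophils (Vcan, Tnfaip6, Elane and F13a1) and 3 in macrophages, against 1257 of 9819 and 1860 of 9393 among all genes tested.

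Thrombospondin-1 activates latent TGF-beta. Tgfb3 had 7, 2 and 10 counts in saline-treated macrophages and 21, 24 and 11 in CGRP-treated ones, and it rose by 2.02 on the log2 scale (SE 0.51, limma-voom adjusted p = 0.0239). Its counts were low, and the call was lost without any 1 of 3 of the 6 libraries, saline-treated macrophage replicates 1 and 2 and CGRP-treated macrophage replicate 2, with adjusted p between 0.0975 and 0.123. Tgfb1 was at 22.3 ± 4.61 and 27.1 ± 4.22 CPM with saline and CGRP in macrophages (SD, n = 3), a difference within the spread. Tgfbr1, a TGF-beta receptor, had 318, 296 and 265 counts after PBS and 198, 188 and 137 after CGRP in macrophages. Its groups did not overlap, but its log2 fold change of -0.46 did not pass (limma-voom adjusted p = 0.0606). Tgfbr2, its partner receptor, had 188, 127 and 158 counts after PBS and 101, 96 and 74 after CGRP, again without overlap, and its log2 fold change of -0.49 did not pass (limma-voom adjusted p = 0.149). Lrrc32, which holds latent TGF-beta at the cell surface, had a log2 fold change of 0.99 (limma-voom adjusted p = 0.0903) and Ltbp3, a latent TGF-beta binding protein, one of 0.83 (limma-voom adjusted p = 0.229). Of the 9 genes in this list, 7 were tested in macrophages, where limma-voom and edgeR called Tgfb3 alone. An unadjusted p under 0.05 was found for 6 of the 7, against 1860 of all 9393 genes tested there. DESeq2 also called Nrros, at -0.42 (adjusted p = 0.0413; limma-voom adjusted p = 0.0540). In neutrophils 4 were tested, where none passed by the 3 tools and none had an unadjusted p under 0.05.

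**Figure D4:**
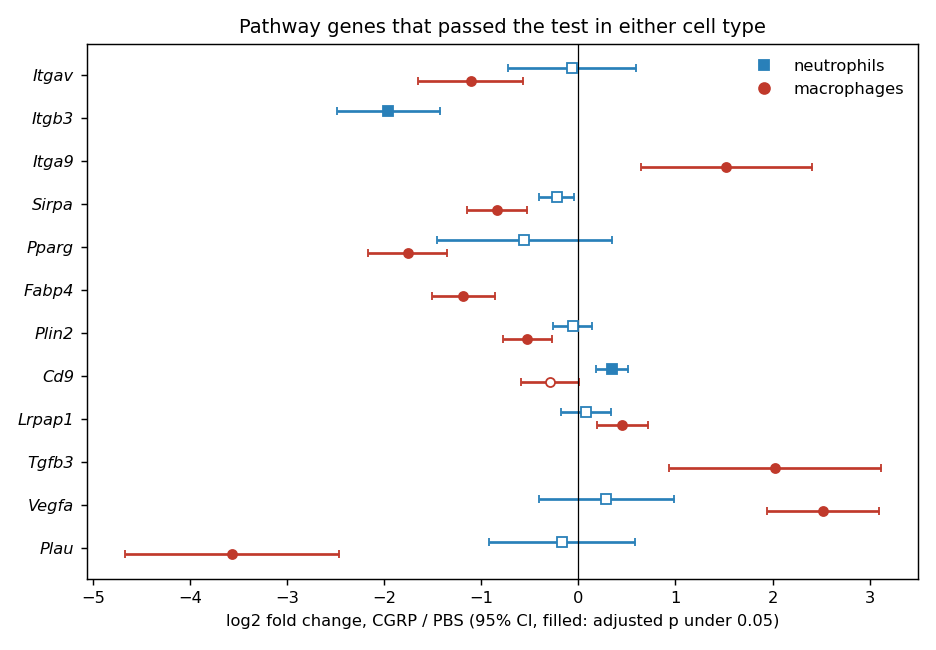
Log2 fold change of CGRP against PBS with 95% confidence intervals from limma-voom, for the 12 genes of the listed partner pathways that passed the adjusted threshold in at least 1 cell type. Squares are neutrophils, circles are macrophages, filled symbols have an adjusted p under 0.05, and a missing symbol was not tested. Itgb3 and Cd9 are filled in neutrophils and the other 10 genes in macrophages.

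Over the 83 genes of these lists, apart from the 8 described first, 59 were tested in neutrophils, 1 rose and 1 fell, which is 3.39% against 2.53% of all genes. In macrophages 56 were tested, 4 rose and 6 fell, which is 17.9% against 7.43% of all genes. The lists were chosen with earlier results of these data known and no test was run on them, so that nothing is read from these shares. The paralogues of Thbs1 gave no signal to compare, with at most 9 counts in any library for Thbs2 and at most 3 for Thbs3, Thbs4 and Comp.

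With saline, all 8 genes differed between the cell types, in a comparison in which 67.9% of 10694 genes were called. This contrast also holds 3 days of culture, M-CSF and another medium, which cannot be told apart from cell type. Cd36 was 50.3-fold higher in macrophages (log2 difference 5.65, limma-voom adjusted p = 3.56e-19). The log2 difference was 4.66 for Sdc3, 3.57 for Sdc1, 2.82 for Sdc4, 2.30 for Lrp1 and 1.97 for Calr, all higher in macrophages. Cd47 and Thbs1 were lower in macrophages, by log2 differences of -1.11 and -1.21. The largest limma-voom adjusted p among the 8 was 8.54e-06.

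The order of the 4 groups therefore differed by gene. For Cd36, Sdc3, Lrp1 and Calr both macrophage groups lay above both neutrophil groups, and within a cell type the saline and CGRP groups did not pass the test where one was run, Sdc3 in neutrophils being below the filter. For Sdc1 the CGRP-treated macrophages stood at the top, then the saline-treated macrophages, then both neutrophil groups, which did not differ beyond their spread. For Sdc4 the saline-treated macrophages stood at the top, then the CGRP-treated macrophages, then both neutrophil groups. For Cd47 the order was reversed, with both neutrophil groups above both macrophage groups. Thbs1 was highest in CGRP-treated macrophages and lowest in saline-treated macrophages, with both neutrophil groups between them.

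The genes whose log2 CPM over the 12 libraries followed each called member most closely were sought among the 8635 genes tested in both cell types. For Thbs1 they were Cyth1, Dusp5 and Ets2, with Pearson r of 0.984, 0.979 and 0.977. For Sdc1 they were Tmem159, Abca1 and Slc25a39, with r of 0.988, 0.988 and 0.987. For Sdc4 they were Plekha1, Pid1 and Apex1, with r of 0.992, 0.989 and 0.988. These are descriptions over libraries that share cell type, treatment and depth, and for the syndecans the difference between the cell types sets much of the range.

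Reads of overlapping or similar genes could enter these counts. On the opposite strand, Thbs1, Sdc3 and Lrp1 overlap genes that had at most 3 counts in any library. Of the other named genes, Tgfb3 overlaps Ttll5, which had up to 19 counts in a library against 2 to 24 for Tgfb3 in macrophages and shares no exon base with it, and 2 genes with at most 1 count. Cd9 overlaps Gm28809, with up to 15 counts and no shared exon base, and Gm26728, with up to 5 counts and 218 shared exon bases. The genes that Itga9, Itgav and Pparg overlap had at most 5 counts. The last 500 bases of the transcripts, near which fragments primed at the poly-A tail lie, shared no 31-base sequence with another gene for Thbs1, Cd47, Cd36, Sdc4, Lrp1 and Calr. The share was 2.41% for Sdc1, with pseudogenes at 0 counts, and 20.4% for Sdc3, with the overlapping Gm26716 at no more than 3 counts. Among the other named genes checked, Itga9 shared 1.86%, with genes that include Madd and Nrp2 at up to 263 and 537 counts, Plau shared 2.38% with other genes, and Cd9 shared 1.28% with a pseudogene at 0 counts. Sirpa shared 0.134% with Sirpb1a, Sirpb1b and Sirpb1c, and Plin2 shared 6.34% with Gm12551, which had at most 3 counts.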

How the data were processed

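mRNA of 12 libraries was primed at the poly-A tail with a 10 bp unique molecular identifier. The authors aligned reads to GRCm38 with STAR in the nfCore/RNAseq pipeline, removed PCR copies, counted genes with featureCounts and deposited raw counts per gene, with the cell types in separate tables. The annotation release and the strand setting of the counting are not given in the sources used here. Genes were kept by filterByExpr (minimum count 10), scaled by TMM and tested two-sided with limma-voom, the method of the authors, on the 6 libraries of each cell type (Benjamini-Hochberg, threshold 0.05). Differences between cell types came from a fit over 12 libraries. The ± values are SDs of CPM, scaled within a cell type. Marker sums were scaled over all libraries. Floors cover counting error only.

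All 8 members are named, then from each list, up to 10 genes per cell type with an adjusted p under 0.05, and for each called member the 3 genes most alike. Sdcbp, Adam10, Tgfb1, Canx, Pdia3, Hspa5, Dnajb11, Vcan, Tnfaip6, Elane, F13a1, Mmp14, Lyn, Fyn, Cd81, Fabp5, Nrros, Tgfbr1, Tgfbr2, Lrrc32, Ltbp3, Pecam1, platelet genes and the paralogues were named in addition, after their values were seen. Members and lists were chosen with earlier results of these data known. Alternatives were DESeq2 size factors, library totals, edgeR, DESeq2, other filters, voomWithQualityWeights, the replicate number as a block, a single fit over 12 libraries, and leaving out each library. Steps were tested on simulated data. Positions came from GENCODE M21, in which 52403 of 52636 identifiers were found. Software was R 4.3.3, limma 3.58.1, edgeR 4.0.16, DESeq2 1.42.0, Python 3.11.15, pandas 2.3.3 and matplotlib 3.10.9.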

Additional observations from a re-analysis of the deposited data

Results flagged for a closer look

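The limma-voom interaction over the 12 libraries, which compares the effect of CGRP between the cell types, called 6 of the genes described. The difference, macrophages minus neutrophils on the log2 scale, was 2.64 for Thbs1 (adjusted p = 4.84e-07), 1.85 for Sdc1 (adjusted p = 0.0096), 2.24 for Vegfa (adjusted p = 0.00532) and -3.39 for Plau (adjusted p = 0.00304). For Cd9 it was -0.63 (adjusted p = 0.0368), with a rise in neutrophils and a log2 fold change below 0 in macrophages that did not pass. For Pecam1, of the fibroblast and endothelial list, with 13 counts or fewer per macrophage library, it was 3.06 (adjusted p = 0.0394). Pecam1 was not tested in macrophages, where its counts were too low, and no difference between the cell types is read from its call. The call for Pecam1 and that for Cd9 were each lost in 9 of 12 leave-one-out fits and that for Sdc1 in 2 of 12, and those for Thbs1, Vegfa and Plau held in all 12. Under the other processing alternatives the call for Pecam1 held in 4 of 7, and the calls for Cd9, Sdc1, Thbs1, Vegfa and Plau held in all that were run. Groups of 3 libraries are too small for a test of single outlying libraries.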

How the results depend on the processing

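The partners called stayed at 0 in neutrophils under every alternative run and at 2 in macrophages, Sdc1 and Sdc4, except that leaving out single libraries gave between 1 and 2. Over all genes, 137 were called in neutrophils in a single fit over 12 libraries (main 248), and in macrophages 1050 in that fit and 1406 with voomWithQualityWeights (main 698). The interaction gave 520 with voomWithQualityWeights (main 252). Without single libraries the counts were between 138 and 234 in neutrophils (138 without PBS replicate 1 or 2, 153 without CGRP replicate 2), 347 and 765 in macrophages (347 without PBS replicate 1, 348 without CGRP replicate 2, 439 without CGRP replicate 3) and 149 and 328 for the interaction (149 without macrophage PBS replicate 1). With library totals in place of TMM, 150 were higher and 64 lower in neutrophils (main 148 and 100), and 88 and 154 in the interaction (main 129 and 123), where the median of all genes was -0.098 (main 0.020).

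With the replicate number as a replicate block, 289 genes were called in neutrophils and 1007 in macrophages, of the partners again 0 and 2. The numbers were not shown to pair libraries, since same-numbered libraries deviated from their group means with r between -0.013 and 0.137 in neutrophils and -0.179 and 0.273 in macrophages.

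Signs turned only for effects near 0 that passed nowhere. Sdc3 in macrophages was 0.091 with voomWithQualityWeights and between -0.24 and 0.18 without single libraries, and Sdc1 in neutrophils was between -0.26 and 0.40 without single libraries. For the interaction, library totals gave -0.085 for Cd47, -0.064 for Lrp1 and -0.0067 for Calr, voomWithQualityWeights gave 0.055 for Sdc3, and leaving out single libraries gave between -0.051 and 0.088 for Cd47, -0.055 and 0.17 for Lrp1 and -0.48 and 0.12 for Sdc3. The cause of these changes was not tested. Of the settings over single genes, 683 kept direction and side of the threshold, 49 lost the call and 17 turned sign. At these depths Sdc1 and Sdc4 in neutrophils gave 42 counts or fewer per library, so that their intervals there are wide, and Sdc3 could not be tested.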
